A study of Mus musculus with 12 samples.

Results

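Bone marrow of mice at day 11 of treatment with an agonist antibody to CD137 was compared with untreated marrow. The samples were chosen by their labelled treatment day alone, which gives 6 of the 12 samples of the series, 3 at day 11 and 3 untreated. All mice were wild-type C57BL/6 and had been injected intravenously with Vk12653, a transplantable myeloma line that arose in Vk*MYC mice. The day 11 mice were given 10 µg of the anti-CD137 clone 3H3 into the peritoneum, a dose given 2 times a week, and their marrow was taken 21 days after the myeloma cells. The untreated mice had received no antibody, and their marrow was taken 10 days after the myeloma cells, at the start of treatment. Time with myeloma and time on antibody therefore differ between the groups together and cannot be told apart. Untreated marrow of later days and a control antibody are not analysed here. The other 6 samples, 3 at day 4 and 3 at day 18 of the same treatment (14 and 28 days after the myeloma cells), served to place day 11 in time and shared the estimate of the spread. RNA was taken from total marrow, all mice carried the same myeloma line, and the labels give neither the sex and age of the mice nor how many mice stand behind a sample. The p-values below measure the spread between these samples only. Of 23134 genes in the table, 14883 had at least 10 normalised counts in at least 3 of the 12 samples and were tested.

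CD137, encoded by Tnfrsf9, is a costimulatory receptor of the tumour necrosis factor receptor family that appears on activated T cells and natural killer cells. Agonist antibodies to it support the division, survival and killing function of CD8 T cells. Effector T cells release granzymes and interferon gamma, and interferon gamma acts in part through IRF1 to switch on guanylate binding proteins, immunity-related GTPases and the genes of MHC class I presentation. Lasting stimulation of T cells is known to bring inhibitory receptors such as PD-1 and the transcription factor TOX with it. Marrow is also where B cells, granulocytes, monocytes and red cells are formed, so each list of marker genes below stands for one of these lineages.

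Normalised totals were 19.97, 20.45 and 19.71 M in the day 11 samples and 20.0, 19.16 and 19.37 M in the untreated samples. The read numbers behind them, estimated from the gaps between low values, ranged between 16.8 and 24.3 M at day 11 and between 21.7 and 25.3 M in untreated marrow. The mixture was that of marrow in both groups, with the neutrophil gene S100a8 between 274111 and 331945 counts at day 11 and between 311760 and 356935 in untreated marrow, and the globin gene Hbb-bs between 10627 and 14764 at day 11 and between 6900 and 12831 in untreated marrow. Untreated sample 1 stood apart from the other two untreated samples. Its 4 CD3 chain genes summed to 582 counts, against 1096 and 970 in the others, and the variable segment Igkv4-91, the most abundant of the B lineage, had 6687 counts there, against 2450 and 2933. In bulk RNA, fewer cells of a type and less RNA per cell cannot be told apart.

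At day 11, 476 genes were higher and 316 lower than in untreated marrow, at an adjusted p below 0.05 in limma with Benjamini-Hochberg adjustment. These 792 genes are 5.32% of those tested, 3.2% higher and 2.12% lower. The day 11 and untreated samples did not overlap for 786 of the 792, while 26.4% of all tested genes had groups that did not overlap. Changes of at least 1 on the log2 scale numbered 219 upward and 121 downward, and the median change of all tested genes was 0.002. The count fell to 445 with estimated depth as a covariate and to 521 without the intensity trend, and rose to 1914 with sample weights. With 1 sample left out it ranged from 407, without day 11 sample 1, to 1134, without day 18 sample 3. It was 502 without untreated sample 1. Of 168 called genes given by name, 111 were called under each of the alternative settings tried. The other 57 had adjusted p-values from 0.00902 to 0.0471 and are listed with the processing results. All log2 changes are on the scale of log2(normalised count + 1) and carry the SE of the model.

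**Figure D1:**
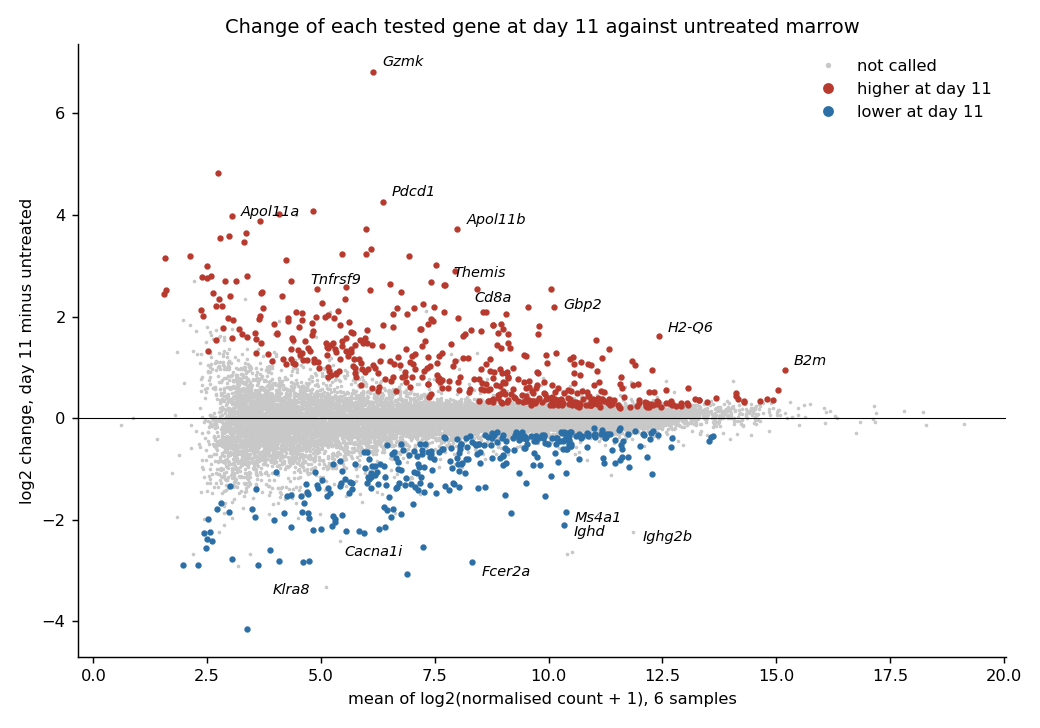
Each point is a tested gene, with the mean of log2(normalised count + 1) over the 6 samples on the horizontal axis and the log2 change at day 11 minus untreated on the vertical axis. Genes called higher at day 11 are red (476), genes called lower are blue (316) and the others are grey. Gzmk stands alone at the top at 6.82, and Ighg2b and Klra8 lie far below 0 without being called.

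The receptor that the antibody binds is given first. Tnfrsf9 (ENSMUSG00000028965.13, GRCm38 chromosome 4, 150914562 to 150946102) had 240, 144 and 346 normalised counts in the day 11 samples and 31, 32 and 45 in the untreated samples. Every day 11 sample lay above every untreated one, and day 11 sample 2 was the lowest of its group. The log2 change was 2.65 ± 0.28 (adjusted p = 5.91e-05). Of 15 tested genes for costimulatory receptors of this family, their ligands and their adaptors, 4 were higher and 0 lower, with a median log2 change of 0.12. Tnfsf4, the ligand of OX40, had 32, 23 and 44 counts at day 11 and 2, 2 and 2 in untreated marrow, near absent in untreated marrow and low but present in each treated sample (3.46 ± 0.41, adjusted p = 0.000195). Cd27, a costimulatory receptor of naive and memory T cells, averaged 727 ± 37.4 at day 11 and 415 ± 45.9 in untreated marrow (SD, n = 3 each), and Traf1, an adaptor that CD137 recruits, averaged 429 ± 30 at day 11 and 252 ± 42.9 in untreated marrow. Both rose, by 0.81 and 0.78 on the log2 scale (adjusted p = 0.00173 and 0.017). The Traf1 call was not made without untreated sample 1 or without day 11 sample 1 or 3 (0.64 to 0.88 over all alternatives). Tnfrsf4, the OX40 gene, did not pass the test, with 60, 75 and 83 counts at day 11 and 62, 61 and 47 in untreated marrow. Nor did Tnfrsf18, the gene of GITR (0.62, adjusted p = 0.0994), or Cd40, which B cells and myeloid cells carry (-0.55, adjusted p = 0.105).

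Genes of the T cell receptor complex and its coreceptors were higher together. Of 14 tested genes, 12 rose and 0 fell, with a median log2 change of 1.73, and these 12 stayed called in number under each of the 22 alternatives. Cd8a, the CD8 alpha chain of cytotoxic T cells, had 1551, 1640 and 1639 counts in the day 11 samples and 230, 472 and 400 in the untreated samples. The 3 day 11 values lay close together and far above the untreated ones (2.19 ± 0.27, adjusted p = 0.000245). Cd8b1, its partner chain, averaged 945 ± 59.4 at day 11 and 285 ± 70.4 in untreated marrow. Cd3e, a signalling chain of the receptor, had 827, 774 and 856 counts at day 11 and 108, 248 and 260 in untreated marrow, where sample 1 was the lowest. Its log2 change was 2.09 ± 0.30 (adjusted p = 0.000853), and Cd3g, Cd3d and Cd247 rose by 1.86, 1.65 and 1.92. Trac, the constant region of the alpha chain, had 715, 738 and 888 counts at day 11 and 131, 212 and 214 in untreated marrow (2.09 ± 0.23, adjusted p = 0.000102). The beta constant regions Trbc1 and Trbc2, close copies of each other whose reads the counting could divide, rose by 1.71 and 1.84. Thy1, a surface marker of mouse T cells, rose by 1.66, Cd28, the costimulatory receptor of T cells, by 1.45, and Cd2, an adhesion molecule of T and natural killer cells, by 0.72.

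Cd4 and Trdc were the 2 members not called. Cd4, the coreceptor of helper T cells, had 874, 651 and 983 counts at day 11 and 577, 772 and 784 in untreated marrow. The groups overlapped and the log2 change was 0.23 ± 0.15 (adjusted p = 0.45). Trdc, the constant region of gamma delta T cells, had 33, 29 and 13 counts at day 11 and 33, 55 and 49 in untreated marrow (-0.91, adjusted p = 0.166). Variable segments of the receptor were counted by family. Of 17 tested Trbv segments 11 rose and 0 fell (median 1.67), and of 7 tested Trav segments 4 rose and 0 fell (median 1.93). Trbv counts summed to 953, 872 and 1090 in the day 11 samples and 229, 392 and 299 in the untreated samples. Among the 5 most abundant beta segments, Trbv16 had 91, 113 and 78 counts at day 11 and 17, 37 and 23 in untreated marrow (1.89 ± 0.31, adjusted p = 0.00246). Trbv29 and Trbv12-2 rose as well, by 2.00 and 1.58. Trbv15 did not pass, with 53, 44 and 180 counts at day 11, highest in sample 3, and 13, 21 and 17 in untreated marrow, and Trbv1 overlapped between groups (138, 54 and 97 at day 11, 43, 62 and 53 in untreated marrow).

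Genes that carry the signal of the T cell receptor followed, with 11 of 15 higher, 0 lower and a median log2 change of 0.88. Themis, a signalling protein of the T lineage, had 475, 446 and 658 counts at day 11 and 61, 104 and 89 in untreated marrow. Its lowest day 11 value lay far above the highest untreated one (2.63 ± 0.24, adjusted p = 1.95e-05). Sh2d1a, the adaptor SAP of SLAM family receptors, had 228, 223 and 333 counts at day 11 and 32, 55 and 51 in untreated marrow (2.49 ± 0.26, adjusted p = 5.76e-05). Sh2d2a, a T cell specific adaptor, averaged 1092 ± 190 at day 11 and 263 ± 39.7 in untreated marrow and rose by 2.05. Zap70, the kinase that docks on the phosphorylated CD3 chains, had 581, 504 and 632 counts at day 11 and 143, 192 and 180 in untreated marrow, without overlap (1.74 ± 0.18, adjusted p = 5.76e-05). Lck and Lat, a kinase and a scaffold of the same step, rose by 1.24 and 1.68. The count of called members ranged from 8 to 12 over the alternatives.

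**Figure D2:**
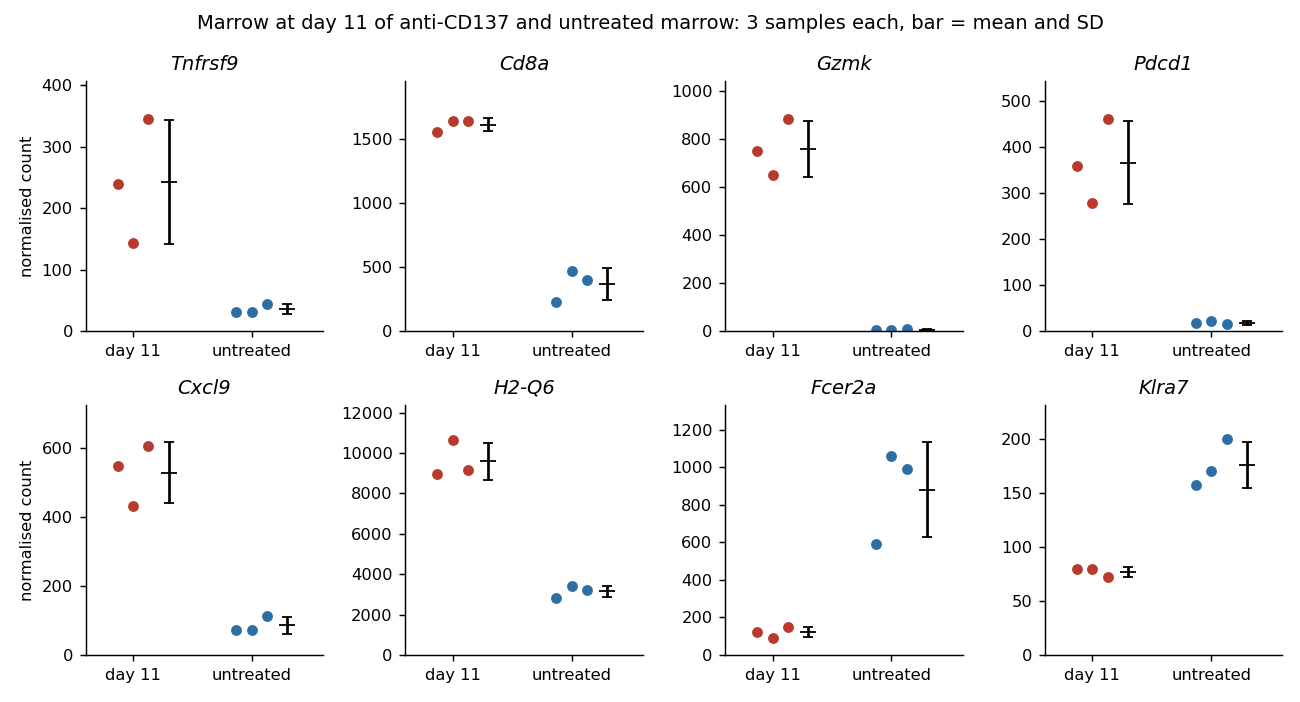
Normalised counts (linear axes from 0) of 8 genes in the 3 day 11 samples (red, left) and the 3 untreated samples (blue, right); the black bar is the mean and SD. For each gene the groups do not overlap: Tnfrsf9, Cd8a, Gzmk, Pdcd1, Cxcl9 and H2-Q6 lie higher at day 11, and Fcer2a and Klra7 lie lower.

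Of 16 tested genes for cytotoxic granules and effector molecules, 12 were higher and 0 lower, with a median log2 change of 1.64. Gzmk, granzyme K (ENSMUSG00000042385.14, GRCm38 chromosome 13, 113171608 to 113225908), had 750, 650 and 883 counts in the day 11 samples and 5, 4 and 9 in the untreated samples. It was close to absent in each untreated sample and far above that in each treated one. Its log2 change of 6.82 ± 0.26 was the largest rise of the tested genes (adjusted p = 6.92e-09). Klrg1, an inhibitory receptor of effector T cells and natural killer cells, had 220, 227 and 246 counts at day 11 and 17, 20 and 13 in untreated marrow. The 3 day 11 values were close together (3.73 ± 0.25, adjusted p = 1.48e-06). Gzmb, granzyme B, had 664, 516 and 894 counts at day 11 and 93, 75 and 102 in untreated marrow (2.90 ± 0.34, adjusted p = 0.000173). Ifng, the interferon gamma gene itself, was low but measurable at day 11 with 49, 51 and 52 counts, against 5, 6 and 11 in untreated marrow. The treated values hardly differed from each other (2.70 ± 0.28, adjusted p = 5.81e-05).

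The chemokine genes Ccl5, Ccl4 and Ccl3 were higher as well, and which marrow cells made them was not tested. Ccl5 had 2942, 3098 and 1897 counts at day 11 and 320, 486 and 545 in untreated marrow (2.55 ± 0.24, adjusted p = 3.37e-05). Ccl4 had 466, 409 and 415 counts at day 11 and 57, 50 and 100 in untreated marrow (2.69 ± 0.20, adjusted p = 3.36e-06), and Ccl3 rose by 1.83. Fasl, the death ligand of killer cells, had 133, 141 and 198 counts at day 11 and 40, 46 and 43 in untreated marrow (1.83 ± 0.25, adjusted p = 0.000657), and Tnfsf10, the gene of TRAIL, rose by 0.92. Prf1, perforin, rose by 1.46 (adjusted p = 0.0117), a call not made without untreated sample 1 or day 11 sample 3 (1.30 to 1.59 over all alternatives). Nkg7, a granule protein of killer cells, averaged 3451 ± 167 at day 11 and 1525 ± 80.3 in untreated marrow and rose by 1.18. Granzymes did not move as one. Gzma had 177, 255 and 202 counts at day 11 and 298, 302 and 366 in untreated marrow (-0.62, adjusted p = 0.257), with each day 11 value below each untreated one, and Gzmm had 45, 57 and 41 at day 11 and 38, 40 and 30 in untreated marrow, which did not differ beyond its spread (adjusted p = 0.506). Xcl1, a chemokine of killer cells, had 32, 30 and 22 counts at day 11 and 14, 16 and 18 in untreated marrow (adjusted p = 0.357).

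Inhibitory receptors and the transcription factors known from stimulated and exhausted T cells were higher, 14 of 21 tested with 0 lower and a median log2 change of 0.97. Pdcd1, the PD-1 gene (ENSMUSG00000026285.7, GRCm38 chromosome 1, 94038305 to 94052553), had 360, 279 and 461 counts in the day 11 samples and 17, 22 and 15 in the untreated samples. The day 11 samples kept the order seen for Tnfrsf9, with sample 3 highest and sample 2 lowest (4.26 ± 0.26, adjusted p = 6.46e-07). Tox had 379, 257 and 517 counts at day 11 and 30, 48 and 43 in untreated marrow (3.19 ± 0.27, adjusted p = 1.09e-05), and its relative Tox2 had 108, 89 and 111 at day 11 and 29, 14 and 18 in untreated marrow (2.34 ± 0.25, adjusted p = 8.06e-05). Both also held sample 2 as the lowest of the day 11 samples. Havcr2, the TIM-3 gene, had 292, 248 and 488 counts at day 11 and 82, 65 and 59 in untreated marrow (2.25 ± 0.32, adjusted p = 0.000778). Lag3 had 700, 625 and 739 counts at day 11 and 307, 355 and 395 in untreated marrow, a smaller rise from a higher base (0.97 ± 0.11, adjusted p = 8.65e-05). Ctla4 rose by 1.48 and Cd160, another inhibitory receptor, by 0.84, the second a call that 7 of the 22 alternatives did not make.

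Among the transcription factors, Eomes, which directs cytotoxic and memory programmes, had 771, 735 and 1011 counts at day 11 and 112, 142 and 176 in untreated marrow. The groups were far apart (2.55 ± 0.21, adjusted p = 1.09e-05). Its relative Tbx21, the T-bet gene, had 155, 215 and 153 counts at day 11 and 97, 96 and 133 in untreated marrow and was not called (0.68, adjusted p = 0.12). Nr4a2, an orphan nuclear receptor induced by T cell receptor signals, averaged 222 ± 69.4 at day 11 and 47.3 ± 6.66 in untreated marrow (2.16 ± 0.22, adjusted p = 4.86e-05). Prdm1, the Blimp-1 gene of effector T cells and plasma cells, had 183, 180 and 268 counts at day 11 and 95, 70 and 94 in untreated marrow and rose by 1.26. Rgs16, a regulator of G protein signalling, had 148, 83 and 197 counts at day 11 and 21, 14 and 8 in untreated marrow (3.23 ± 0.33, adjusted p = 5.18e-05).

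Because the T cell genes rose as a whole, 17 genes were also given per 100 counts of the CD3 chain genes Cd3d, Cd3e, Cd3g and Cd247 within each sample, a ratio that no scaling between samples changes. The CD3 sum was 3032, 3034 and 3177 counts in the day 11 samples and 582, 1096 and 970 in the untreated samples. With 3 samples against 3, the exact two-sided permutation test cannot go below p = 0.1, so it can pass no threshold of 0.05 here, and the ratios are given as descriptions. Some of these genes are also made by cells other than T cells. Per 100 CD3 counts, Gzmk stood at 24.7, 21.4 and 27.8 in the day 11 samples and at 0.859, 0.365 and 0.928 in the untreated samples, a log2 difference of 5.21. Pdcd1 stood at 11.9, 9.2 and 14.5 at day 11 and at 2.92, 2.01 and 1.55 in untreated marrow, a difference of 2.48. Klrg1, Tox, Gzmb, Ifng and Eomes were also higher without overlap, by 1.96, 1.37, 1.06, 1.02 and 0.71. Cd8a differed by 0.34, with 51.2, 54.1 and 51.6 at day 11 and 39.5, 43.1 and 41.2 in untreated marrow. For these 8 genes the permutation p was the smallest the test can give, which any ratio without overlap between the groups gives. The same held for Lag3, Cd4, Ccr7, Il7r and Cxcr3, which were lower per CD3 count.

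Zap70 stood at 19.2, 16.6 and 19.9 per 100 CD3 counts at day 11 and at 24.6, 17.5 and 18.6 in untreated marrow, and the groups overlapped. Tnfrsf9 stood at 7.92, 4.75 and 10.9 at day 11 and at 5.33, 2.92 and 4.64 in untreated marrow, a log2 difference of 0.83 with overlap (exact permutation p = 0.2). Lag3 was lower per CD3 count at day 11, with 23.1, 20.6 and 23.3 against 52.7, 32.4 and 40.7 in untreated marrow, although its level was higher. Cd4 stood at 28.8, 21.5 and 30.9 at day 11 and at 99.1, 70.4 and 80.8 in untreated marrow, a difference of -1.63. Ccr7, a homing receptor of naive T cells that is not confined to T cells, stood at 4.82, 4.68 and 5.48 at day 11. In untreated marrow it stood at 49.8, 40.4 and 41.1, a difference of -3.13. The share of Ccr7 counts that came from T cells was not tested. Il7r, which B lineage cells also express, differed by -2.37, and Cxcr3, whose level was higher at day 11, stood at 13.5, 15.2 and 12.1 at day 11 and at 26.5, 18 and 20.6 in untreated marrow, a difference of -0.66. The checkpoint gene Havcr2 differed by 0.42 and Cd28 by -0.4, both with overlap (exact permutation p = 0.5 and 0.2). With Thy1 in place of the CD3 chains as denominator, the difference of Zap70 was 0.08 in place of -0.11, and the other 16 genes kept their sign.

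**Figure D3:**
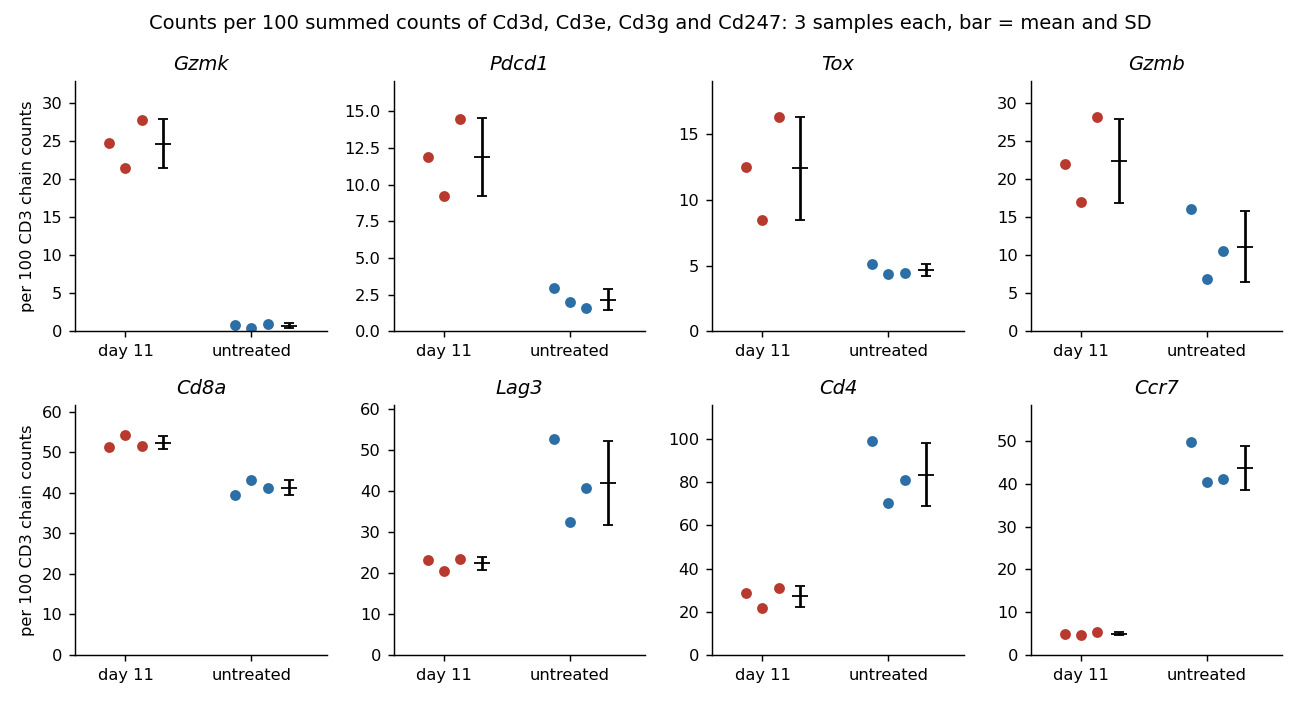
Counts of 8 genes per 100 summed counts of Cd3d, Cd3e, Cd3g and Cd247 (linear axes from 0) in the 3 day 11 samples (red, left) and the 3 untreated samples (blue, right); the black bar is the mean and SD. Gzmk, Pdcd1, Tox, Gzmb and Cd8a lie higher at day 11, and Lag3, Cd4 and Ccr7 lie lower.

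Genes of naive and memory T cells were called in both directions. Of 18 tested, 4 rose, 5 fell and the median log2 change was -0.02. Il2rb, the receptor chain for interleukins 2 and 15, averaged 2722 ± 432 at day 11 and 1302 ± 262 in untreated marrow and rose by 1.07 (adjusted p = 0.00432). The homing receptor genes Cxcr6 and Cxcr3 rose, Cxcr6 with 304, 387 and 270 counts at day 11 and 101, 151 and 141 in untreated marrow (1.29 ± 0.20, adjusted p = 0.00145) and Cxcr3 by 1.19. Runx3, a transcription factor of CD8 T cells, rose by 0.60. Ccr7, which is not confined to T cells, fell (-1.27 ± 0.18, adjusted p = 0.000657). It had 146, 142 and 174 counts at day 11 and 290, 443 and 399 in untreated marrow. S1pr1, the receptor by which lymphocytes leave tissues, changed by -0.89 (adjusted p = 0.0079), and Bach2, Il7r and Satb1, which B lineage cells also express, changed by -0.81, -0.51 and -0.40. The calls of these last 3 were lost under 5 to 7 of the 22 alternatives. Of 6 tested regulatory T cell genes, Ctla4 and Itgb8 rose and Il2ra, the CD25 gene, fell, with 213, 185 and 263 counts at day 11 and 415, 402 and 334 in untreated marrow (-0.81, adjusted p = 0.0347). The Itgb8 call rests on 12, 7 and 22 counts at day 11 and 3, 2 and 4 in untreated marrow and was lost under 9 of 21 alternatives, among them the one without untreated sample 1 (1.15 to 2.14 over all).

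Receptor genes of natural killer cells went the other way. Of 18 tested, 0 rose and 5 fell, with a median log2 change of -1.08, and the number that fell ranged from 3 to 10 over the alternatives. Klri2, a lectin-like receptor, had 56, 44 and 39 counts in the day 11 samples and 161, 156 and 174 in the untreated samples. The groups were well apart (-1.81 ± 0.35, adjusted p = 0.00727). Klra7 and Klra1, Ly49 receptors of MHC class I, fell too. Klra7 had 80, 80 and 72 counts at day 11 and 158, 171 and 200 in untreated marrow (-1.17 ± 0.23, adjusted p = 0.00739), and Klra1 had 33, 34 and 29 at day 11 and 68, 101 and 71 in untreated marrow (-1.28 ± 0.24, adjusted p = 0.00597). Klrc2, an activating receptor, and Ncr1, the NKp46 gene that marks natural killer cells, changed by -1.01 and -1.69 (adjusted p = 0.019 and 0.0455), calls that 5 and 10 of the 22 alternatives did not make. Klra8 and Klra4 showed still larger differences, -3.32 and -2.41, without passing (adjusted p = 0.06 and 0.0726). Klra8 had 21, 11 and 4 counts at day 11 and 78, 126 and 131 in untreated marrow, and sample 3 was the lowest at day 11 for both genes. Reads of the Ly49 genes, which are close in sequence, could be divided between them in counting. Klrk1 and Klrd1, receptors shared with CD8 T cells, were not called, while Klrg1, given above with the effector genes, rose. Klrk1, the NKG2D gene, had 628, 642 and 580 counts at day 11 and 490, 545 and 560 in untreated marrow (0.21, adjusted p = 0.596), and Klrd1 changed by -0.35 (adjusted p = 0.332). Tyrobp, a signalling adaptor of killer and myeloid cells, changed by -0.07.

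The response genes of interferon gamma were higher, 17 of 25 tested, with 1 lower and a median log2 change of 0.82. Cxcl9, a chemokine that draws T cells through CXCR3, had 548, 432 and 606 counts in the day 11 samples and 73, 71 and 114 in the untreated samples. Every treated value lay far above the untreated ones (2.63 ± 0.25, adjusted p = 3.62e-05). Tgtp1 and Tgtp2, T cell specific GTPases that are close copies of each other, rose by 2.19 and 1.81, reads of the pair being open to division in counting. Gbp2, a guanylate binding protein, had 2414, 2173 and 2566 counts at day 11 and 559, 427 and 601 in untreated marrow (2.18 ± 0.24, adjusted p = 0.000101). Gbp6, Gbp5 and Gbp3 of the same family rose by 1.86, 1.48 and 1.08, and Gbp9 was not called (0.19, adjusted p = 0.563). Igtp, an immunity-related GTPase, had 1779, 1725 and 1850 counts at day 11 and 798, 656 and 759 in untreated marrow (1.28 ± 0.15, adjusted p = 0.000215), and Ifi47 of the same family rose by 0.89.

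Irf1, the transcription factor that relays interferon gamma, had 4246, 3964 and 4108 counts at day 11 and 2502, 2157 and 2335 in untreated marrow, with little spread in either group (0.82 ± 0.08, adjusted p = 4.2e-05). Cd274, the PD-L1 gene, averaged 615 ± 69.8 at day 11 and 392 ± 10.1 in untreated marrow and rose by 0.64 (adjusted p = 0.0154). Nlrc5, the transactivator of MHC class I genes, had 4125, 4013 and 4150 counts at day 11 and 1691, 1328 and 1767 in untreated marrow (1.37 ± 0.11, adjusted p = 1.09e-05). Ciita, the transactivator of MHC class II genes that B cells also express, was the 1 member that fell, with 498, 344 and 524 counts at day 11 and 732, 1112 and 1020 in untreated marrow (-1.07 ± 0.21, adjusted p = 0.00909). That call was not made with estimated depth as a covariate. Cxcl10 and Socs1 did not pass (0.78 and 0.37, adjusted p = 0.128 and 0.459). In called genes the type I interferon list stayed near the 5.32% of all tested genes, with 1 of 23 higher, 0 lower and a median of 0.28. At an unadjusted limma p below 0.05 stood 7 of the 23 (30.4%), against 19.7% of all tested genes, so the list is not described as unchanged. Its called gene was Zbp1, a sensor of nucleic acids (1.17, adjusted p = 0.021), while Oasl2 had 4010, 4847 and 5028 counts at day 11 and 4120, 1774 and 3009 in untreated marrow (adjusted p = 0.189), and Irf7 changed by 0.23. Of these 3 genes, untreated sample 1 held the highest untreated value.

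The promoters of 5 called genes, 4 of the interferon gamma list and B2m of the class I chains, are printed because these genes rose together and short motifs known from interferon-responsive genes can be read in them. The sequences are RefSeq promoters of GRCm38.p6, each with 250 bases before and 50 bases after the gene's start, 5′ to 3′ on the gene's strand, which is the plus strand for all 5. Capitals mark matches to TTCNNNGAA, the letters of a gamma-activated site, which reads the same on both strands, and to GAAANNGAA or its reverse complement TTCNNTTTC, the core letters of an interferon-stimulated response element. No match overlaps another in these sequences. Irf1 has 2 promoters in the table, and the one with a match is shown.
Gbp2, chr3:142620413-142620712: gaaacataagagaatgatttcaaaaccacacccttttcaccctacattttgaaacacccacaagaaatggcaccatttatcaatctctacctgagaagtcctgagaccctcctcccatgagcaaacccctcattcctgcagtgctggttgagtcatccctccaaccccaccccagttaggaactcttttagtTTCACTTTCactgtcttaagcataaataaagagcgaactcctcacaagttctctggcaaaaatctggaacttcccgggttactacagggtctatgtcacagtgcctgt
Gbp5, chr3:142496684-142496983: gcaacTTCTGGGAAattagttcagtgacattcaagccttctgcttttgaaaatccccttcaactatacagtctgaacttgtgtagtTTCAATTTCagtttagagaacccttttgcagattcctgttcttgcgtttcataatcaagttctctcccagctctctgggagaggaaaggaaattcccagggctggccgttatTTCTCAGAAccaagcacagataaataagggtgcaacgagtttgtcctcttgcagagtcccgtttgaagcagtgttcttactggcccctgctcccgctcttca
Igtp, chr11:58199306-58199605: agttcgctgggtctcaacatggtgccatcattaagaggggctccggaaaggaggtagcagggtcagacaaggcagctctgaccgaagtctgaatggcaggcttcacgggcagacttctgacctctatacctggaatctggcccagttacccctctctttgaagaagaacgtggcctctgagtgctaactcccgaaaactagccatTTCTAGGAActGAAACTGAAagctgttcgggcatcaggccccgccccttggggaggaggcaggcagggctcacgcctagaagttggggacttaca
Irf1, chr11:53769764-53770063: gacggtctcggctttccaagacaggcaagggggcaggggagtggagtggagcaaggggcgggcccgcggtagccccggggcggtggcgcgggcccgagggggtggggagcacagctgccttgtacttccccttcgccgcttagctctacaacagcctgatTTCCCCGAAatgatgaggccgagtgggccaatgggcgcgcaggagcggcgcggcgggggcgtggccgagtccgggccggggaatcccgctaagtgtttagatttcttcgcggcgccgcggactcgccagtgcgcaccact
B2m, chr2:122147437-122147736: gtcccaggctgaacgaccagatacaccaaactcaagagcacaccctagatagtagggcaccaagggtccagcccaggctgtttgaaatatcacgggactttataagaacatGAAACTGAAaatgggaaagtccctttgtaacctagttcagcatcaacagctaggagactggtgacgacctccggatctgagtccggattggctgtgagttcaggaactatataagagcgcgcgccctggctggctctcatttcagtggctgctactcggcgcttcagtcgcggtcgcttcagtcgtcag

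The Gbp5 promoter held 2 matches to the gamma-activated letters and 1 to the response element, Igtp held 1 of each some bases apart, Irf1 held 1 gamma-activated match, and Gbp2 and B2m held 1 response element each. Of the 17 tested interferon gamma genes with a promoter in the table, 7 (41.2%) held the gamma-activated letters and 14 (82.4%) the response element. Over all 27025 genes with a promoter the shares were 9.55% and 9.76%. The type I interferon list, with 1 of 23 tested genes called at day 11, had 5 of 18 (27.8%) and 11 of 18 (61.1%). Of 7 class I chain genes with a promoter, 1 (14.3%) held the gamma-activated letters and 3 (42.9%) the response element, and of 7 loading genes 0 and 2 (28.6%) did. A match describes the letters of the window and was not tested as a site of binding.

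Genes of MHC class I presentation rose with the interferon gamma list. Of 9 tested class I chain genes 5 rose and 0 fell (median 0.74), and of 9 tested genes for peptide loading and the immunoproteasome 9 rose (median 0.53). H2-Q6, a class I gene of the Q region, had 8965, 10632 and 9162 counts in the day 11 samples and 2844, 3391 and 3210 in the untreated samples. The groups were far apart for the spread they showed (1.61 ± 0.09, adjusted p = 2.7e-07). H2-Q4 and H2-T22 rose by 1.04 and 0.93, though reads of these closely related genes could be divided in counting. B2m, the light chain shared by all class I molecules, had 51153, 54308 and 49763 counts at day 11 and 27487, 25483 and 27549 in untreated marrow (0.95 ± 0.10, adjusted p = 5.5e-05). It was among the most abundant genes that changed. H2-M3, which presents formylated peptides, rose by 0.74, and H2-T23, the Qa-1 gene, was not called (0.30, adjusted p = 0.0988).

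Along the path of the peptides, Psmb10, a catalytic subunit of the immunoproteasome, had 1948, 1909 and 1904 counts at day 11 and 1227, 1149 and 1190 in untreated marrow (0.69 ± 0.07, adjusted p = 4.86e-05). Both groups were tight. Psme1 and Psme2, the proteasome activator, rose by 0.51 and 0.59. Tap1, a subunit of the peptide transporter, had 7143, 6498 and 6957 counts at day 11 and 3825, 3282 and 3630 in untreated marrow (0.94 ± 0.10, adjusted p = 8.18e-05), and its partner Tap2 rose by 0.53. Tapbpl, a peptide editor, and Erap1, which trims peptides, rose by 0.71 and 0.51. The chaperones Calr and Pdia3, which also serve other proteins, rose least (0.43 and 0.32). Of 12 tested subunits of the constitutive proteasome, 1 rose, Psma5 by 0.36 (adjusted p = 0.019), and the median was 0.21. That count reached 9 under 1 alternative, sample weights. At an unadjusted limma p below 0.05 stood 10 of the 12 subunits (83.3%), against 19.7% of all tested genes.

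**Figure D4:**
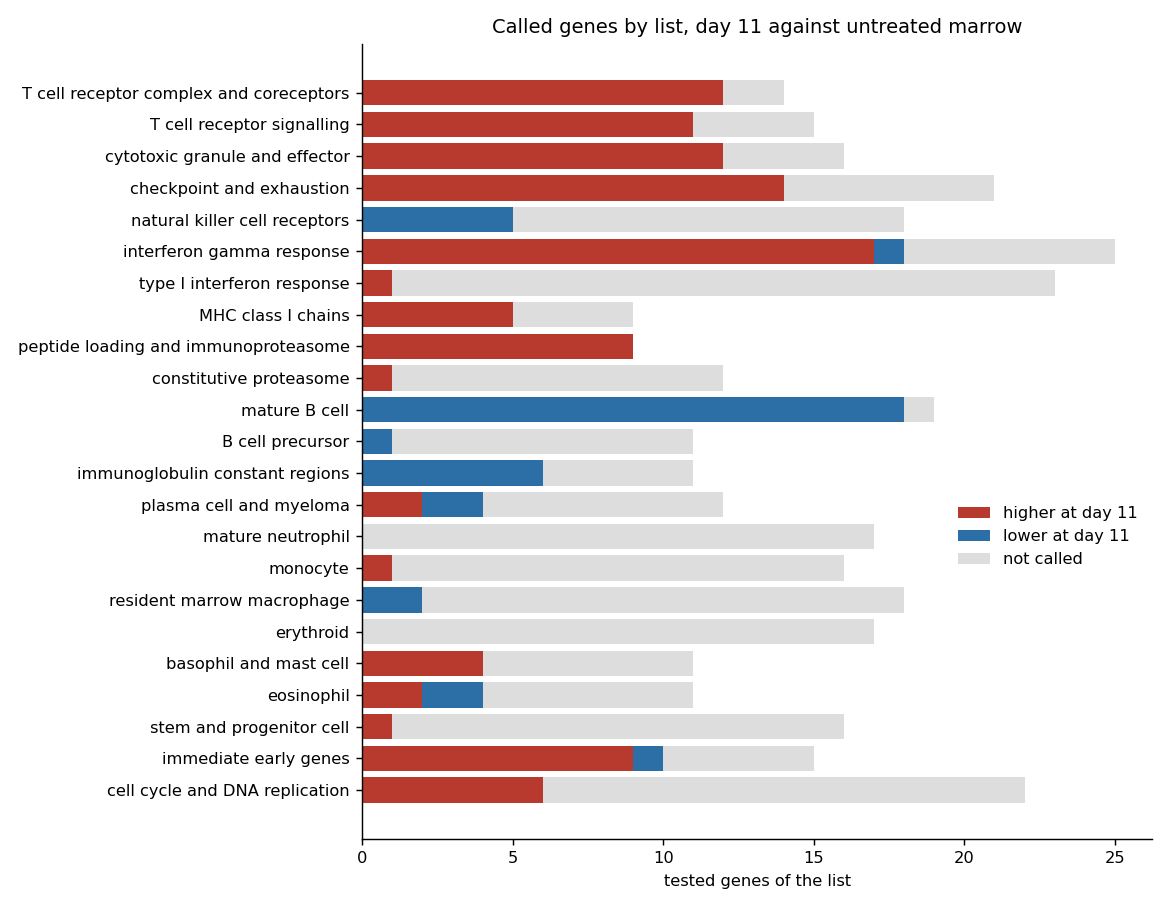
Number of tested genes in each of 23 lists (horizontal axis) that were called higher (red), called lower (blue) or not called (grey) at day 11 against untreated marrow. The T cell, effector, checkpoint, interferon gamma and peptide loading lists are mostly red, the mature B cell list is mostly blue with 18 of 19, and the neutrophil and erythroid lists are entirely grey.

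Mature B cell genes were lower at day 11. Of 19 tested, 18 were lower and 0 higher, with a median log2 change of -0.96, and the number ranged from 12 to 18 over the alternatives, with 15 without untreated sample 1. Fcer2a, the CD23 gene of mature follicular B cells (ENSMUSG00000005540.10, GRCm38 chromosome 8, 3681737 to 3694175), had 123, 92 and 149 counts in the day 11 samples and 589, 1057 and 991 in the untreated samples. Untreated sample 1 was the lowest of its group and still far above every treated sample (-2.83 ± 0.24, adjusted p = 1.09e-05). Ighd, the constant region of IgD on mature naive B cells, had 568, 670 and 647 counts at day 11 and 1831, 3621 and 2949 in untreated marrow (-2.10 ± 0.24, adjusted p = 0.000106). Ms4a1, the CD20 gene, had 625, 614 and 906 at day 11 and 2284, 2892 and 2447 in untreated marrow (-1.84 ± 0.23, adjusted p = 0.000313). Fcmr, the receptor of IgM, Cd22, an inhibitory receptor, and Bank1, an adaptor of the B cell receptor, changed by -1.86, -1.54 and -1.51. Tnfrsf13c, the BAFF receptor gene, and Fcrl1 changed by -1.27 and -1.37. Genes that earlier B cells share moved less, with -0.82 for Cd79a and -0.76 for Pax5, the transcription factor of the lineage. Ighm, the IgM constant region, was the member not called (16982, 18052 and 25254 counts at day 11, 23729, 28025 and 23710 in untreated marrow, adjusted p = 0.299).

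Of 11 tested genes of B cell precursors, 1 fell and 0 rose, with a median of -0.02. Over all tested genes 5.32% were called, 2.12% lower, so this count does not set the list apart. At an unadjusted limma p below 0.05 stood 1 of the 11 (9.09%), against 19.7% of all tested genes. Rag1, which recombines receptor genes in precursors, had 2111, 1873 and 1939 counts at day 11 and 2397, 2253 and 2375 in untreated marrow (-0.25, adjusted p = 0.554). Vpreb3, of the surrogate light chain family, had 862, 968 and 496 at day 11 and 862, 1009 and 785 in untreated marrow, and Ebf1, a transcription factor of the lineage, changed by -0.38 (adjusted p = 0.369). Groups overlapped for Vpreb3, and for Rag1 and Ebf1 the changes did not exceed the spread of the model. The called member was Il7r, given above.

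Antibody genes were lower where they were called. Of 11 tested constant regions 6 fell and 0 rose, with a median of -1.12, and the number ranged from 3 to 8 over the alternatives (3 without untreated sample 1). Igkc, the kappa constant region, had 3118, 2715 and 4591 counts at day 11 and 8226, 7367 and 6204 in untreated marrow (-1.09 ± 0.23, adjusted p = 0.0128). Iglc2 and Iglc3, near-identical lambda constant regions, changed by -1.48 and -0.98. Ighg1 changed by -3.06 and Ighg2c by -1.46 (adjusted p = 0.037 and 0.0258), calls not made without untreated sample 1, nor under 6 and 5 other alternatives. Ighg2b was the most abundant IgG gene, with 1874, 1556 and 1701 counts at day 11 and 15029, 5042 and 7027 in untreated marrow. The groups did not overlap, but the untreated values differed so much among themselves that the change of -2.25 ± 0.74 was not called (adjusted p = 0.101). Igha had 2515, 1557 and 1456 at day 11 and 2925, 5211 and 3815 in untreated marrow (adjusted p = 0.0563). Ighg3 was high in 1 treated sample alone, with 1475, 68 and 347 counts at day 11 and 39, 83 and 131 in untreated marrow (adjusted p = 0.25).

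A pair of variable segments stood out in level. Igkv4-91 had 611, 584 and 550 counts at day 11 and 6687, 2450 and 2933 in untreated marrow (-2.64, adjusted p = 0.117). Ighv1-15 had 601, 495 and 524 counts at day 11 and 6376, 2190 and 2924 in untreated marrow (-2.68, adjusted p = 0.0881). Like Ighg2b, each was highest in untreated sample 1, and neither passed the test. The next most abundant B lineage segments, Iglv1, Ighv1-26 and Igkv14-126, changed by -0.71, -0.66 and -0.80 and were not called. By family, 9 of 91 tested Ighv segments and 9 of 79 Igkv segments fell and 0 rose (medians -0.76 and -1.08). Plasma cell genes were mixed, with 2 of 12 higher, 2 lower and a median of -0.06. Sdc1, the CD138 gene of plasma and myeloma cells, had 251, 310 and 237 counts at day 11 and 675, 398 and 432 in untreated marrow (-0.88 ± 0.17, adjusted p = 0.00786). Tnfrsf13b, the TACI gene, fell too (-0.54). The 2 that rose were Prdm1 and Cd28, which T cells also express. Irf4, a factor on which myeloma cells depend, had 1296, 1113 and 1268 counts at day 11 and 1992, 1799 and 1509 in untreated marrow (-0.52, adjusted p = 0.0869), and Jchain, the joining chain of secreted antibody, changed by -0.83 (adjusted p = 0.184).

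Counts for the largest lineages of the marrow are read beside the 5.32% of all tested genes that were called. Lists of this length can hold no call at that share, so these lists are not described as unchanged. Of 17 tested mature neutrophil genes 0 were called in limma at the adjusted threshold (median -0.11). At an unadjusted limma p below 0.05 stood 3 of them (17.6%), against 19.7% of all tested genes. Of 17 erythroid genes 0 were called at either threshold (median 0.11). Slc4a1, the band 3 gene of red cells, changed by 0.29 (adjusted p = 0.463), and Cxcr2, a chemokine receptor of neutrophils, had 8486, 10516 and 8791 counts at day 11 and 14688, 9714 and 10771 in untreated marrow, with overlap between the groups. Of 16 monocyte genes 1 rose, Nr4a1, which is also an immediate early gene. Of 10 primary granule genes 1 rose, Mpo by 0.38 (adjusted p = 0.0444), a call that 11 of the 22 alternatives did not make. The number of primary granule genes that rose ranged from 0 to 6 over the alternatives. At an unadjusted limma p below 0.05 stood 6 of the 10, against 19.7% of all tested genes. Of 18 resident macrophage genes 2 fell, the haemoglobin scavenger receptor gene Cd163 (-0.72, adjusted p = 0.0369) and Apoe (-0.76, adjusted p = 0.0302), and the number ranged from 0 to 7 over the alternatives. Mrc1 and Siglec1 showed differences of -0.71 and -0.81 without a call (adjusted p = 0.0505 and 0.15), and C1qa and Vcam1 did not differ beyond their spread.

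Rarer lineages gave a few named genes. Of 11 basophil and mast cell genes 4 rose and 0 fell (median 0.35), among them the basophil protease Mcpt8 (0.67, adjusted p = 0.0295) and the IgE receptor gene Fcer1a (0.77, adjusted p = 0.02), and the 2 others were Cpa3 and Gata2. None of these 4 was called without untreated sample 1, and Gata2 is also the 1 of 16 stem and progenitor genes that was called. Of 11 eosinophil genes the granule genes Epx and Ear6 rose (0.91 and 1.11), calls not made without untreated sample 1. The receptor genes Il5ra and Ccr3 fell. The Ccr3 call was not made under 11 of the 22 alternatives, among them the one without untreated sample 1 (-1.01 to -0.61 over all). Il5ra, which B cells of some kinds also express, had 44, 43 and 49 counts at day 11 and 78, 117 and 114 in untreated marrow (-1.15 ± 0.21, adjusted p = 0.0056). Among complement genes C4b rose, with 225, 252 and 350 counts at day 11 and 78, 72 and 89 in untreated marrow (1.76 ± 0.21, adjusted p = 0.000195), and Cd55, which restrains complement on cells, fell (-0.60, adjusted p = 0.00233). Of 13 stromal genes Kitl, the ligand of KIT, and Lpl fell (-1.19 and -0.51). The calls of Kitl and Lpl were not made under 4 and 7 of the 22 alternatives. At an unadjusted limma p below 0.05 stood 15.4% of the stromal and 16.7% of the endothelial genes, against 19.7% of all tested genes. Of 12 endothelial genes 1 fell, the scavenger receptor gene Stab1 with 74, 79 and 74 counts at day 11 and 123, 149 and 145 in untreated marrow (-0.86 ± 0.14, adjusted p = 0.00244). Of 14 dendritic cell genes 2 fell, Cd209a (-0.99) and Spib, which B cells share (-0.77), a call that 6 of the 22 alternatives did not make. The 14 megakaryocyte, 6 osteoblast and 5 osteoclast genes tested held 0 calls in limma, with 2, 2 and 1 at an unadjusted p below 0.05.

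Several of the largest changes lay outside these lists. Apol11b and Apol11a, apolipoprotein L genes that lie near each other on chromosome 15 and are close in sequence, were both higher. Apol11b had 1218, 779 and 839 counts at day 11 and 50, 82 and 81 in untreated marrow, and Apol11a had 202, 80 and 97 at day 11 and 5, 4 and 10 in untreated marrow. They rose by 3.72 ± 0.23 and 4.08 ± 0.39 (adjusted p = 6.92e-07 and 3.37e-05). Chst2, a carbohydrate sulfotransferase, had 212, 195 and 246 counts at day 11 and 19, 27 and 17 in untreated marrow (3.33 ± 0.18, adjusted p = 2.7e-07). Serpina3f, a serine protease inhibitor, had 521, 488 and 559 at day 11 and 55, 70 and 66 in untreated marrow (3.02 ± 0.17, adjusted p = 2.82e-07). Tmprss13, a membrane serine protease, had 55, 85 and 64 at day 11 and 2, 3 and 5 in untreated marrow (4.03 ± 0.31, adjusted p = 5.98e-06). For each of these 5 genes every treated sample lay far above every untreated one. Among the falls, Cacna1i, a pore subunit of T-type calcium channels, had 58, 77 and 54 counts at day 11 and 261, 449 and 414 in untreated marrow (-2.53 ± 0.23, adjusted p = 2.21e-05). Cd209f and Cd209c, lectins of the DC-SIGN family, changed by -2.83 and -1.96, and Stac2 and Rapgef4 by -2.12 and -1.99. Hepacam2, Chst1, Pxdc1 and Col14a1, a collagen gene, changed by -2.19, -2.27, -2.22 and -2.23. Of these, Cd209f, Chst1 and Col14a1 were not called without untreated sample 1 (-3.23 to -2.36, -2.71 to -1.88 and -2.91 to -1.82 over all alternatives). The same held for these genes without untreated sample 3. The Pxdc1 call was not made under 4 of the 22 alternatives, among them those without untreated sample 2 or 3 (-2.55 to -1.90 over all).

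Day 11 was then set against the days around it. Against day 4, 108 genes were higher and 142 lower, 250 in all or 1.68% of those tested, 0.726% higher and 0.954% lower, and this difference is also the test of whether the change from untreated marrow differed between the days. Gzmk had 750, 650 and 883 counts at day 11 and 185, 111 and 216 at day 4 (2.19 ± 0.26, adjusted p = 0.000655). Among the effector genes 7 of 16 were higher at day 11 than at day 4 and 2 lower, the 2 being Ccl3 and Xcl1, and among the checkpoint genes 6 of 21 were higher and 0 lower. Tnfrsf9 averaged 243 ± 101 at day 11 and 224 ± 65.4 at day 4, a difference of 0.08 that was not called (adjusted p = 0.97). Of the interferon gamma genes 11 of 25 were higher at day 11 and 0 lower, of the class I chains 4 of 9 and of the loading genes 4 of 9. The natural killer receptors were lower at day 11 than at day 4 for 6 of 18, Klra7 with 80, 80 and 72 counts at day 11 and 389, 224 and 282 at day 4 (-1.90 ± 0.23, adjusted p = 0.000599). Of the mature B cell genes 7 of 19 were lower at day 11 than at day 4 and 0 higher.

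Immediate early genes, which cells switch on within minutes of a stimulus and which handling of tissue can also induce, were called against both untreated marrow and day 4. Against untreated marrow 9 of 15 were higher and 1, Btg2, was lower (median 0.59). The Btg2 call was not made under 13 of the 22 alternatives (-0.37 to -0.24 over all). Fos had 5787, 6902 and 3820 counts at day 11 and 1887, 2096 and 3702 in untreated marrow (1.13 ± 0.25, adjusted p = 0.0169), and Jun had 3647, 4251 and 2936 at day 11 and 895, 1142 and 1842 in untreated marrow (1.53 ± 0.25, adjusted p = 0.00236). Against day 4, 12 of 15 were lower at day 11 and 0 higher. Fosb had 573, 461 and 496 counts at day 11 and 5725, 7744 and 9021 at day 4 (-3.86 ± 0.48, adjusted p = 0.000857), and the day 4 values were higher throughout. Egr2, a relative of Egr1, rose by 1.51 against untreated marrow (adjusted p = 0.00247). Atf3 and Egr1 differed by -2.84 and -1.84 between these days. The count against untreated marrow ranged from 3 to 9 over the alternatives and was 5 without untreated sample 1, which held the lowest Fos, Fosb and Jun of the untreated samples. Whether sampling contributed to these levels was not tested. Of 15 tested inflammatory cytokine and chemokine genes 3 rose and 0 fell against untreated marrow, and 0 were higher and 2 lower at day 11 than at day 4. Cxcl2, which draws neutrophils, had 74, 78 and 174 counts in untreated marrow, 2294, 1704 and 4182 at day 4 and 456, 465 and 374 at day 11, a change of 2.09 at day 11 against untreated marrow (adjusted p = 0.0018). Ccl8, a chemokine of the CC class, had 3, 2 and 0 counts in untreated marrow, 10, 8 and 8 at day 4, 20, 33 and 28 at day 11 and 51, 79 and 68 at day 18, and its change at day 11 against untreated marrow was 3.58 ± 0.44 (adjusted p = 0.000242). Ccl2 rose as well (1.80, adjusted p = 0.011). Of 11 NF-kB genes 2 rose, among them the feedback inhibitor Tnfaip3 (0.47), which differed by -1.30 from day 4, and Nfkbia was not called against untreated marrow.

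**Figure D5:**
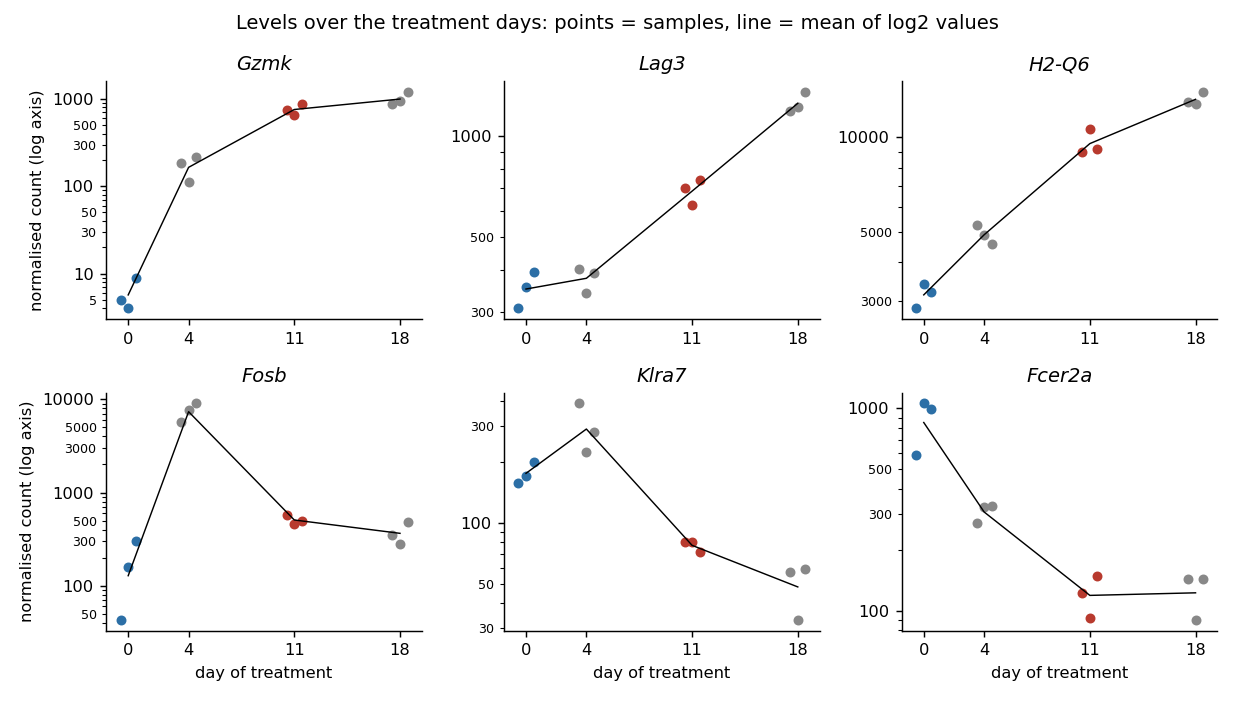
Normalised counts (log axes) of 6 genes against the day of treatment, with untreated marrow at day 0 in blue, day 11 in red and days 4 and 18 in grey; the line joins the group means of the log2 values. Gzmk, Lag3 and H2-Q6 are higher at day 11 than at day 4, Klra7 and Fcer2a are lower, and Fosb peaks at day 4.

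Against day 11, 1 gene passed the threshold at day 18 (0.00672% of those tested), and it was Lag3, with 1187, 1225 and 1357 counts at day 18 and 700, 625 and 739 at day 11 (0.87 ± 0.11, adjusted p = 0.0168). At an unadjusted p below 0.05, 1040 genes differed between these days. The count was 28 without untreated sample 1, 151 with sample weights and 0 when any 1 day 11 sample was left out. Gzmk had 872, 938 and 1202 counts at day 18, Pdcd1 had 568, 744 and 757 and H2-Q6 had 12947, 12815 and 13987, against 750, 650 and 883, 360, 279 and 461 and 8965, 10632 and 9162 at day 11, and none of the 3 was called (adjusted p = 0.888, 0.277 and 0.0879).

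Genes of growth and stress rose by small amounts where they were called. Of 22 genes of the cell cycle and DNA replication 6 rose and 0 fell (median 0.22), and that count ranged from 0 to 16 over the alternatives, with 0 without untreated sample 1. Mcm3, a subunit of the replicative helicase, had 6559, 6859 and 6973 counts at day 11 and 5405, 5627 and 5503 in untreated marrow (0.30 ± 0.07, adjusted p = 0.0162). Top2a, a topoisomerase, and Plk1, a mitotic kinase, rose by 0.38 and 0.30, and Mki67 was not called (0.19, adjusted p = 0.383). Of 11 heat shock genes 3 rose, among them Hspa8 (0.55) and Hsph1 (0.49), and of 12 genes of the unfolded protein response 3 rose, Hspa5, Manf and Dnajb9 (0.39, 0.34 and 0.34), a number that was 1 without untreated sample 1. At an unadjusted p below 0.05 stood 16 of the 22 cell cycle, 8 of the 11 heat shock and 8 of the 12 unfolded protein genes, and 19.7% of all tested genes. Glycolysis had 1 of 13 higher, Pfkp (0.40), cholesterol synthesis 0 of 13 (2 at an unadjusted p below 0.05), and the enzymes of tryptophan, arginine and nitric oxide 1 of 7, the tryptophan-tRNA ligase gene Wars (0.35), which interferon gamma is known to induce.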

How the data were processed

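RNA of total bone marrow was sequenced from 12 samples, 3 each of untreated marrow and days 4, 11 and 18 of anti-CD137, with a stranded mRNA kit and paired reads, per the labels' protocols. The authors deposited 1 table of normalised counts per gene, whole numbers that are treated here as a score because the normalisation is not given in the sources used here. STAR 2.3.0, featureCounts 1.4.6, Subread, limma and GRCm38 are named in the submitters' processing notes, without their roles. The strand setting of the counting is not given, so overlapping and antisense genes cannot be told apart. Depth was estimated from the gaps between low values. All 23134 IDs matched GENCODE M21, and 248 symbols differ from it.

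A gene was kept if 3 or more of the 12 samples held 10 or more normalised counts (14883 kept, 8251 removed). Group means of log2(normalised count + 1) were fitted with limma 3.58.1 in R 4.3.3 over all 12 samples, with an intensity trend and with 8 residual degrees of freedom beside 5.73 of the prior. Benjamini-Hochberg adjustment ran over all tested genes and the threshold was 0.05. No count test was used, since the table does not hold raw counts. The fit was tested on simulated data. The members and the 45 gene lists (688 genes, of which 556 were tested) were chosen with earlier results of these data known. The genes named are Tnfrsf9, the 12 largest rises and 12 largest falls with a group mean of at least 50 and no overlap, the 4 called members of each list with the smallest adjusted p, any member called against its list, list members given where their list is described, and the 5 most abundant variable segments of T and of B cells, and some genes under this rule are not reported here. Python 3.11.15 and scipy 1.17.1 gave the exact permutation tests. The alternatives were 2 other pseudocounts, 2 other filters, scaling by the trimmed mean of M values, quantile normalisation, no trend, sample weights, the compared groups alone, a depth covariate, and each of the 12 samples left out.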

Additional observations from a re-analysis of the deposited data

Results flagged for a closer look

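The change from untreated marrow differed between days 11 and 4 for the genes below, by the limma contrast of day 11 minus day 4 (adjusted p below 0.05, 1.68% of tested genes). All values are log2 differences, positive where day 11 was higher. For T cell and effector genes they were 2.19 for Gzmk, 1.75 for Ccl5, 1.65 for Gzmb, 1.52 for Fasl, 1.48 for Cxcr6, 1.44 for Cd8a, 1.31 for Klrg1 and 1.28 for Cd8b1. Further genes of this kind were Themis at 1.22, Cd3g at 1.19, Prdm1 at 1.02, Cd28 at 0.91, Cxcr3 at 0.85, Tnfsf10 at 0.76, Nkg7 at 0.66, Gimap7 at 1.0 and Cd27 at 0.64. Ccr7 differed by -0.94, Ccl3 by -0.63 and Xcl1 by -1.85. Among the checkpoint genes, Tox2 differed by 1.91, Pdcd1 by 1.67, Tox by 1.53, Havcr2 by 1.53 and Lag3 by 0.86. Lag3 differed again between days 18 and 11, by 0.87 higher at day 18.

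Of the interferon gamma genes, Tgtp1 differed by 1.43, Gbp2 by 1.38, Gbp6 by 1.13, Cxcl9 by 1.10, Tgtp2 by 0.99, Igtp by 0.84, Nlrc5 by 0.79, Gbp3 by 0.60, Ifi47 by 0.57 and Irf1 by 0.56. In class I presentation, H2-Q6 differed by 0.97, H2-T22 by 0.72, H2-M3 by 0.62, Tap1 by 0.62, B2m by 0.49, Tapbpl by 0.47, Psmb10 by 0.44, Psme2 by 0.34 and H2-Q5 by 0.77. Genes outside the lists were Apol11a at 2.85, Tmprss13 at 2.37, Apol11b at 2.24, Chst2 at 1.17, Serpina3f at 1.03, Rapgef4 at -1.05 and Cacna1i at -1.38, and the complement gene C4b stood at 1.21.

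Natural killer receptors were lower at day 11 than at day 4, with -3.17 for Klra4, -2.03 for Klri2, -1.90 for Klra7, -1.60 for Klra1 and -1.31 for Klrc2. B cell and antibody genes were lower too, with -1.72 for Igha, -1.71 for Ighg2c, -1.36 for Fcer2a, -1.32 for Ms4a1, -1.16 for Fcmr and -1.09 for Igkc. The others of this kind were Iglc3 at -0.97, Tnfrsf13c at -0.86, Bank1 at -0.84, Cd22 at -0.81 and Fcrl1 at -0.80. Immediate early and inflammatory genes were lower as well, with -3.86 for Fosb, -2.84 for Atf3, -2.56 for Cxcl2, -2.14 for Jun, -1.90 for Fos, -1.84 for Egr1, -1.30 for Tnfaip3, -1.01 for Nfkbia, -0.66 for Nr4a1 and -0.66 for Btg2. The remaining genes were Gcg at 3.72, Kitl at -1.28, Dnajb9 at -0.85, Mrc1 at -0.84 and Stab1 at -0.69.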

How the results depend on the processing

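Between day 11 and untreated marrow, 521 genes were called without the intensity trend, 445 with the depth covariate, 1914 with sample weights and 407 to 1134 when 1 sample was left out (1134 without day 18 sample 3, 502, 450 and 442 without untreated samples 1, 2 and 3, and 407, 596 and 449 without day 11 samples 1, 2 and 3). Between days 11 and 4 the counts were 141 without the trend, 763 with sample weights and 136 to 341 with 1 sample left out. Between days 18 and 11 they were 3 without the filter, 0 without the trend, 151 with sample weights, 14 with the compared groups alone and 0 to 28 with 1 sample left out. The cause was not tested. No paired analysis was possible because the labels number no replicate, and the numbers used here only name samples.

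Of the 168 called genes given by name, 57 were not called under at least 1 of the 22 alternatives: Apoe, Apol7e, Atf3, Bach2, Btg2, Calr, Ccl2, Ccr3, Cd160, Cd163, Cd209d, Cd209f, Cd274, Cd79a, Chst1, Ciita, Col14a1, Cpa3, Dnajb9, Ear6, Egr1, Epx, Fcer1a, Fos, Fosb, Gata2, Hspa5, Ighg1, Ighg2c, Igkc, Il2ra, Il7r, Itgb8, Kitl, Klrc2, Lpl, Manf, Mcm3, Mcpt8, Mpo, Ncr1, Pax5, Pdia3, Pfkp, Plk1, Prf1, Psma5, Pxdc1, Satb1, Spib, Tap2, Tnfaip3, Top2a, Traf1, Trbv29, Wars and Zbp1. The most were lost without the intensity trend (45), without day 11 sample 1 (45) and without untreated sample 2 (40). None of these 168 genes changed direction under the alternatives run for it. Genes that were not called and changed sign with 1 sample left out were Igkv14-126 (-1.38 to 0.21), Tyrobp (-0.19 to 0.0), Vpreb3 (-0.43 to 0.05) and C1qa (-0.06 to 0.14). Rag1 was at 0.01 with the depth covariate, and C1qa at -0.01 with quantile normalisation, -0.1 with sample weights and -0.12 with the depth covariate.

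With 3 samples a group, changes smaller than the spread of these samples were not detectable, and the low counts of Ifng, Tnfsf4 and Ccl8 limit their precision.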

Other observations

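Gene families outside the lists were counted by symbol after their values had been seen, so their counts describe these samples only. Of the apolipoprotein L genes 5 of 8 rose and 0 fell (median log2 change 2.18), against 5.32% of all tested genes called, and their counts summed to 1955, 1310 and 1420 in the day 11 samples and 297, 458 and 487 in the untreated samples. Apol7e had 100, 108 and 95 counts at day 11 and 39, 66 and 44 in untreated marrow, while Apol8 had 362, 309 and 322 at day 11 and 197, 300 and 343 in untreated marrow. The CD209 lectin genes, which lie together on chromosome 8, had 4 of 4 tested members lower (median -1.48), among them Cd209d with 46, 45 and 58 counts at day 11 and 89, 107 and 92 in untreated marrow. The number of lower CD209 members ranged from 2 to 4 over the alternatives and was 3 without untreated sample 1. Ly49 receptor genes had 6 of 13 lower and 0 higher (median -1.28), a number that ranged from 3 to 9 over the alternatives. Klra2 had 1511, 1719 and 1531 counts at day 11 and 1865, 1527 and 1812 in untreated marrow, and its groups overlapped.

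Replication-dependent histone genes had 17 of 47 higher and 0 lower (median 0.78), with sums of 5609, 5269 and 3933 counts at day 11 and 2939, 3275 and 3210 in untreated marrow. That number ranged from 8 to 27 over the alternatives. The libraries were made with an mRNA kit, and how fully it captured histone transcripts was not tested. Of the class I genes of the H2 complex 7 of 10 rose and 0 fell (median 0.83). H2-Q5 had 2214, 2107 and 2435 counts at day 11 and 858, 1047 and 1038 in untreated marrow, and H2-Q10, known mainly from liver, had 1080, 1732 and 1145 at day 11 and 2260, 1867 and 2038 in untreated marrow (-0.67, adjusted p = 0.0548). Of the GTPases of immunity associated proteins, 2 of 9 rose. Gimap7 had 419, 513 and 543 counts at day 11 and 116, 188 and 181 in untreated marrow. The schlafen genes held 0 calls of 9 in limma, also at an unadjusted p below 0.05. Gcg, the glucagon gene, was chosen after its values were seen, with 42, 12 and 81 counts at day 11 and 1, 0 and 0 in untreated marrow (4.83, adjusted p = 0.000313).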
